A study of Mus musculus with 12 samples.

Results

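The genes described here are the 10 core genes of MHC class I presentation and the immunoproteasome, chosen by name, of 55487 Ensembl genes in the deposited count table. Each matched 1 row. They encode a pair of class I heavy chains (H2-K1 and H2-D1), their light chain (B2m), the peptide transporter and its tether (Tap1, Tap2 and Tapbp), the inducible catalytic subunits of the immunoproteasome (Psmb8, Psmb9 and Psmb10) and a peptide-trimming enzyme (Erap1). RNA was measured in primary wild-type MSCs, mesenchymal stromal cells from the bone marrow of C57BL/6 mice, in 3 groups of 4 samples. Control MSCs were untreated. The second group received 50 μM A1 for 6 h. A1 is a variant of Accum, a conjugate of cholic acid and a nuclear localization signal peptide that disrupts endosomes. The third group received 50 μM A1 together with 1 mg/ml ovalbumin (OVA), the chicken egg white model antigen, also for 6 h. No group received OVA without A1, so the comparison of A1 + OVA with A1 measures the addition of OVA only in the presence of A1. The labels' description of the A1 + OVA medium also names insulin, with no amount, and an effect of OVA and one of insulin cannot be told apart here. No time or mock treatment is given for the control MSCs, so A1 and handling over the 6 h cannot be told apart either. No label says which samples came from separate cultures or animals, so that the p-values measure the spread between these samples, which may be technical.

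Class I molecules carry peptides of cytosolic proteins to the cell surface for CD8 T cells. Proteasomes cut the proteins, the TAP transporter moves the peptides into the endoplasmic reticulum, Erap1 trims them there, and tapasin (encoded by Tapbp) holds an empty heavy chain and beta-2-microglobulin next to TAP until a peptide is bound. In cross-presentation the same machinery handles antigen taken up from outside, and interferon-gamma raises most of these genes and exchanges constitutive proteasome subunits for inducible ones, including in MSCs.

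Most of the genes lie in the MHC region of chromosome 17 (GRCm38 build, GENCODE M21 annotation). Tapbp (ENSMUSG00000024308) spans 33915899 to 33929292. H2-K1 (ENSMUSG00000061232) spans 33996017 to 34000347 on the minus strand. Psmb9 (ENSMUSG00000096727, 34181987 to 34187764, minus strand), Tap1 (ENSMUSG00000037321, 34187553 to 34197225), Psmb8 (ENSMUSG00000024338, 34197721 to 34201454) and Tap2 (ENSMUSG00000024339, 34203527 to 34216321) are neighbours, and the annotated start of Psmb9 overlaps that of Tap1 on the other strand. The libraries were counted by strand. H2-D1 (ENSMUSG00000073411) spans 35262730 to 35267499. Outside this region are B2m (ENSMUSG00000060802) on chromosome 2 from 122147686 to 122153083, Psmb10 (ENSMUSG00000031897) on chromosome 8 from 105935735 to 105938444 on the minus strand, and Erap1 (ENSMUSG00000021583) on chromosome 13 from 74639568 to 74693201. All values are for reads in exons.

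Each sample held between 13702348 and 16881995 counts. Expression is given in CPM, counts scaled to the TMM-normalized library size of the 11314 tested protein-coding genes. A pair of libraries stood apart from the other 10: in A1 replicate 2, 87 genes (3 of them protein-coding, none a gene of the lists here) had at least 10 counts and over 3 times the highest count of any other library, and in control replicate 2 the same held for 7 genes, among them Thy1 and H2-Q2. Without control replicate 2 or without A1 replicate 2, the count of the 10 genes lower with A1 + OVA fell from 4 to 3 in both cases, through Psmb9. A list of 12 MSC markers, among them collagens, summed to between 11497 and 14393 CPM per sample, with the A1 samples at 11497 to 12015, the A1 + OVA samples at 11681 to 12100 and the control samples at 13645 to 14393, and the part of this difference in the results below was not tested. Of the 11 markers tested, 2 rose and 5 fell with A1, against 31.7% and 31.1% of all tested genes called higher and lower. Cxcl12 went from 3910 ± 130 CPM in control to 1514 ± 63.6 CPM with A1 (SD, n = 4), while Cd44 went from 175 ± 6.50 to 458 ± 14.2 CPM, Itgb1 from 1451 ± 71.5 to 2225 ± 91.5 CPM and Col1a1, which was not called, from 3335 ± 289 to 3246 ± 238 CPM. Of the MSC surface markers, Nt5e (CD73) had 7 to 14 counts per sample and Thy1 (CD90) at most 3 outside control replicate 2, where it had 17. Of 16 markers of macrophages and other hematopoietic cells, 8 had no count in any sample, among them Aif1, C1qa, C1qb, C1qc, Cd3e, Nkg7 and Tyrobp, and the list summed to between 0.43 and 1.36 CPM.

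The 10 genes differed widely in level. Per kb of annotated exon sequence, control MSCs held 734 ± 27.05 CPM per kb (SD, n = 4) of B2m, followed by Tapbp with 32.96 and H2-D1 with 19.97 CPM per kb. Erap1 stood at 8.50, Tap2 at 5.88, Psmb10 at 4.56, H2-K1 at 3.57 and Tap1 at 2.599 CPM per kb. The lowest were Psmb9 with 0.25 and Psmb8 with 0.21 CPM per kb, at 9 to 18 counts per control sample. In this order the control samples of Psmb10 and H2-K1, of H2-K1 and Tap1, and of Psmb9 and Psmb8 overlapped, and those of the other neighbours did not. The places of H2-K1 and H2-D1 are less certain, since reads that match several class I genes may be lost or shared.

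None of the 10 genes was higher with A1, and 6 were lower: Tap1, Tap2, Tapbp, Psmb9, H2-K1 and H2-D1. Of all tested genes, 31.7% were called higher and 31.1% lower in this comparison by edgeR's quasi-likelihood test at an adjusted p-value under 0.05. The count of 0 higher was also 0 at an unadjusted p under 0.05 and with DESeq2. With a log2 fold change of at least 0.5 required, 4 of the 10 remained (Tap1, Tap2, Tapbp and Psmb9), against 11.6% of all tested genes called lower by that rule. The median log2 fold change of the 10 was -0.34, and that of all tested genes was -0.0017. Psmb9 passed the filter on low counts through the control samples, where it is high, so its place in these counts is no support for them. Among A1 + OVA-treated MSCs, 0 of the 10 genes passed upwards and 4 downwards (Tap1, Tap2, Tapbp and Psmb9), against 29.7% and 27.9% of all tested genes. Of them 3 passed 0.5 (Tap1, Tap2 and Psmb9), against 8.79% of all genes, and Psmb9 is no support for these counts either. The median of the 10 was -0.19, against 0.0036 for all tested genes. An unadjusted p under 0.05 and DESeq2 also gave 0 higher. In the direct comparison of A1 + OVA with A1, 1 of the 10 was higher (Tapbp) and 0 were lower, against 6.05% and 6.81% of all tested genes. At an unadjusted p under 0.05, 4 were higher and 0 lower, and DESeq2 called 1 higher and 0 lower. All 10 estimates lay above 0 in the direct comparison, with a median of 0.15, and 51.8% of all tested genes had an estimate above 0. The 3 comparisons share samples: the A1 samples enter both the first and the direct comparison, so their values are given side by side and were not tested against each other. In bulk RNA, fewer cells that express a gene and less RNA per cell cannot be told apart.

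**Figure D1:**
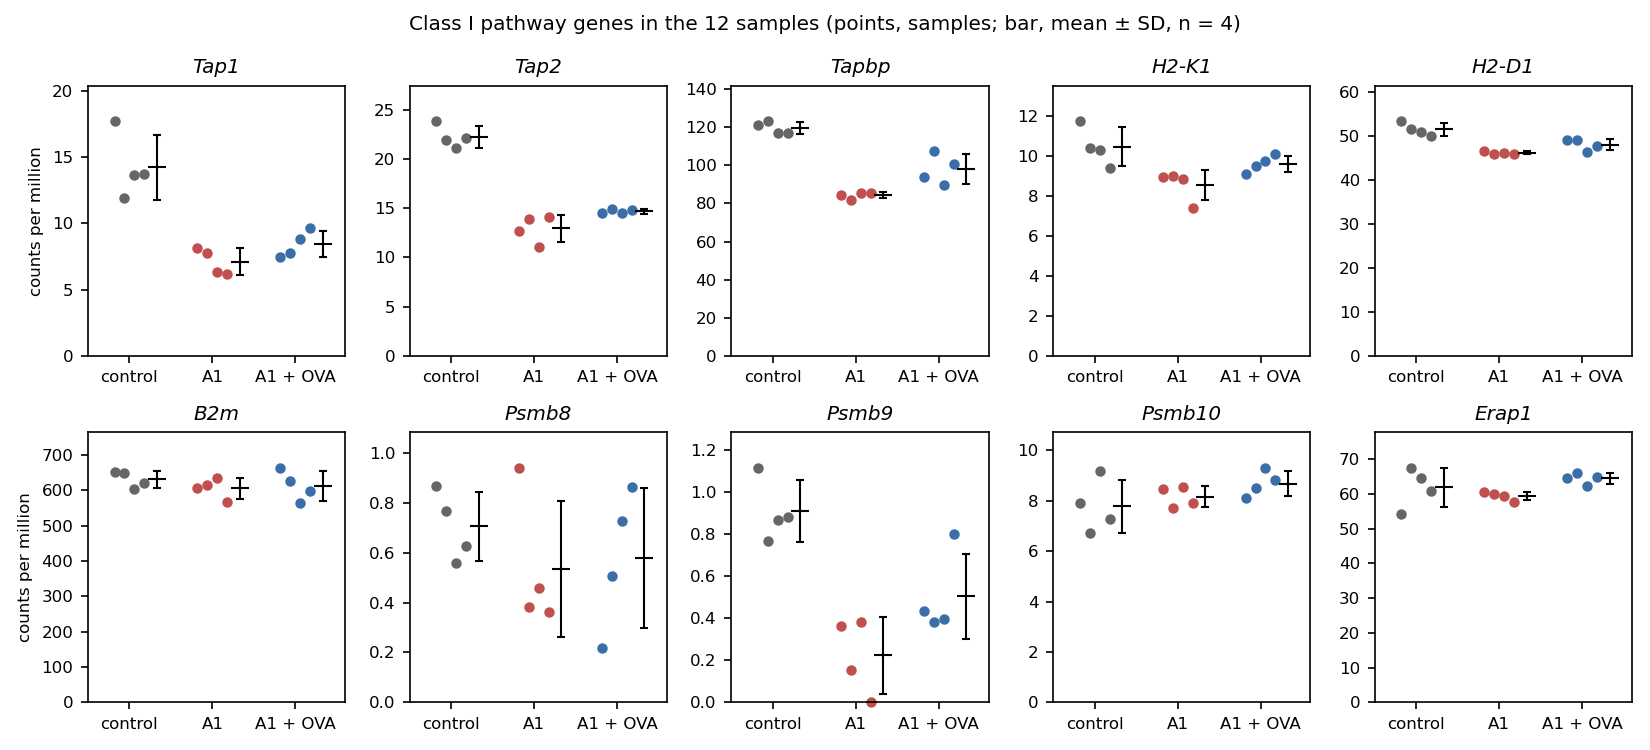
CPM of the 10 genes in each sample (y axis, from 0), with points for single samples in control, A1-treated and A1 + OVA-treated MSCs and a bar for the mean ± SD of 4 samples. For Tap1, Tap2 and Tapbp all 8 treated samples lay below all 4 control samples, while B2m, Psmb10 and Erap1 overlapped.

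Among the genes for peptide transport, Tap1, which encodes the first chain of the transporter, showed the largest decrease of the well-counted genes. It had 17.7, 11.9, 13.6 and 13.7 CPM in control replicates 1 to 4, 8.17, 7.79, 6.34 and 6.17 CPM with A1, and 7.47, 7.79, 8.85 and 9.61 CPM with A1 + OVA. All treated samples were below all control samples, and the treated groups overlapped each other. On the log2 scale Tap1 changed by -0.997 with A1 (standard error 0.12, adjusted p = 4.9e-07) and -0.75 with A1 + OVA (standard error 0.12, adjusted p = 1.3e-05). Directly compared, A1 + OVA exceeded A1 by 0.25 on the log2 scale with a 95% interval of -0.04 to 0.53, which did not pass the test (adjusted p = 0.250).

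Tap2 encodes its second chain. Its control samples held 23.8, 21.9, 21.1 and 22.1 CPM, the A1 samples 12.7, 13.9, 11.1 and 14.1 CPM, and the A1 + OVA samples 14.5, 14.9, 14.5 and 14.9 CPM. The 3 groups did not overlap, with A1 lowest and control highest. Log2 fold changes were -0.78 with A1 (standard error 0.07, adjusted p = 8.1e-09) and -0.60 with A1 + OVA (standard error 0.07, adjusted p = 2.7e-07). The direct difference of 0.18 (95% interval 0.02 to 0.35) missed the threshold after adjustment (adjusted p = 0.141). Within samples, Tap1 had 54.4% to 74.3% of the counts of Tap2 in control, 44.0% to 64.3% with A1 and 51.6% to 64.8% with A1 + OVA. These ranges overlapped, and the log2 ratio of Tap1 to Tap2 differed between A1 and control by -0.21 with an exact two-sided permutation p of 0.257 (adjusted p = 0.321 over 15 such ratio comparisons).

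Tapbp was the 1 gene of the 10 called in all 3 comparisons. Tapasin bridges TAP and the empty class I molecule and edits its peptides. Control MSCs held 121.2, 123.1, 117.1 and 117.0 CPM of Tapbp, A1-treated MSCs 84.5, 81.9, 85.5 and 85.3 CPM and A1 + OVA-treated MSCs 93.9, 107.4, 89.8 and 100.8 CPM. The groups were fully separated, with A1 + OVA between the others and its samples the most spread. Tapbp fell by 0.50 on the log2 scale with A1 (standard error 0.05, adjusted p = 6.0e-09) and by 0.29 with A1 + OVA (standard error 0.05, adjusted p = 1.7e-05), and it was 0.22 higher with A1 + OVA than with A1 (standard error 0.05, adjusted p = 0.0044). The direct difference is 1.16-fold, and it passed the threshold under each normalization, filter and left-out sample that was tried, with values of 0.17 to 0.26, but not a minimum log2 fold change of 0.5.

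H2-K1 and H2-D1 encode the classical class I heavy chains of this strain. For H2-K1, control samples held 11.8, 10.4, 10.3 and 9.41 CPM, A1 samples 8.97, 9.01, 8.85 and 7.41 CPM, and A1 + OVA samples 9.13, 9.50, 9.77 and 10.1 CPM. A1 and control did not overlap, and A1 + OVA lay above A1 and overlapped control. H2-K1 fell by 0.29 with A1 on the log2 scale (standard error 0.09, adjusted p = 0.0090). With A1 + OVA the value was -0.12 (adjusted p = 0.255), and in the direct comparison it was 0.17 with a 95% interval of -0.02 to 0.37 (adjusted p = 0.248).

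The H2-D1 heavy chain was the more abundant of the pair. It had 53.3, 51.7, 50.9 and 50.0 CPM in control, 46.6, 45.8, 46.2 and 46.0 CPM with A1 and 49.1, 49.0, 46.4 and 47.6 CPM with A1 + OVA. Both treated groups lay below control, and they overlapped each other in 1 sample. The decrease with A1 was small, -0.16 (standard error 0.04, adjusted p = 0.0034), and the value with A1 + OVA was -0.10 (adjusted p = 0.051), on the other side of the threshold. Class I heavy chain genes resemble each other in sequence, and reads that match several can be lost or shared between them. When the counts of 6 H2 heavy chain genes were added (H2-D1 held 48.4% of the sum, the non-classical H2-T22 31.7% and H2-K1 9.55%), the sum changed by -0.25 with A1, by -0.12 with A1 + OVA (adjusted p = 0.019) and by 0.13 from A1 to A1 + OVA (adjusted p = 0.037). This sum is not a measure of H2-K1 and H2-D1 alone. H2-T22 on its own was called lower with A1 + OVA (-0.20, adjusted p = 0.0098), from 36.0 ± 2.39 to 31.4 ± 2.03 CPM (SD, n = 4), and it stood at 27.7 ± 1.86 CPM with A1.

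B2m, the light chain that every class I molecule needs, had no difference past the test. Its samples held 653, 648, 603 and 621 CPM in control, 607, 616, 636 and 566 CPM with A1 and 664, 625, 564 and 599 CPM with A1 + OVA, and all groups overlapped. The log2 fold changes of B2m were -0.06 with A1 (95% interval -0.16 to 0.04), -0.04 with A1 + OVA (-0.14 to 0.06) and 0.02 between the treatments (-0.08 to 0.11). The sum of H2-K1 and H2-D1 was 9.58% to 10.2% of the B2m counts in control and 8.66% to 9.44% with A1, without overlap. The difference of this log2 ratio was -0.12 with an exact two-sided permutation p of 0.0286, the smallest that 4 against 4 samples allow (adjusted p = 0.0857 over the 15 ratio comparisons).

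The promoters of H2-K1 and B2m are shown because the heavy chain was called lower with A1 and its partner was not. Both hold a match to the NF-kB consensus, set in capitals. The B2m promoter also holds the interferon response core GAAANNGAA, in capitals upstream of it. Only this spelling of the core was searched, so its absence from H2-K1 does not show that H2-K1 lacks an interferon element. Sequences are from RefSeq for GRCm38.p6, 5′ to 3′ on the strand of the gene, limited to bases outside annotated exons.
H2-K1 promoter, chr17:34000348-34000597, minus strand: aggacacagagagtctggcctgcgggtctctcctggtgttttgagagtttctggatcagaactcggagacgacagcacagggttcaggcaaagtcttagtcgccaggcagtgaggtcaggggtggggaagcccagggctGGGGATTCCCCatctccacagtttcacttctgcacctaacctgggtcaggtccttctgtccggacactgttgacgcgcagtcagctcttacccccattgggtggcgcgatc
B2m promoter, chr2:122147437-122147685, plus strand: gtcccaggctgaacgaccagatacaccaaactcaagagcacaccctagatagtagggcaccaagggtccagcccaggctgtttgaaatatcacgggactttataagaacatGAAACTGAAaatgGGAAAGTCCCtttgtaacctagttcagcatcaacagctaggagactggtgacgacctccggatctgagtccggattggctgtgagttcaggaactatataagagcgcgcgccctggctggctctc
RefSeq promoters, 250 bases before to 50 after each start, were found for 9 of the 10 genes (not for Tap2). On either strand the NF-kB consensus was in 3 of the 9 (H2-K1, H2-D1 and B2m), against 8.46% of all 32851 promoters. In H2-K1 and H2-D1 it matched at 2 positions that overlap, offset by 1 base. The interferon response core was in 2 (B2m and Erap1), against 8.56%, and the gamma-activated site TTCNNNGAA was in 1 (Psmb8), against 8.30%. Those of Tap1, Tapbp, Psmb9 and Psmb10 held none of these letters in the window. A match is a string in the sequence, with no measurement of binding. Other spellings of the interferon elements were not searched, so a promoter without a match may still hold such an element.

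**Figure D2:**
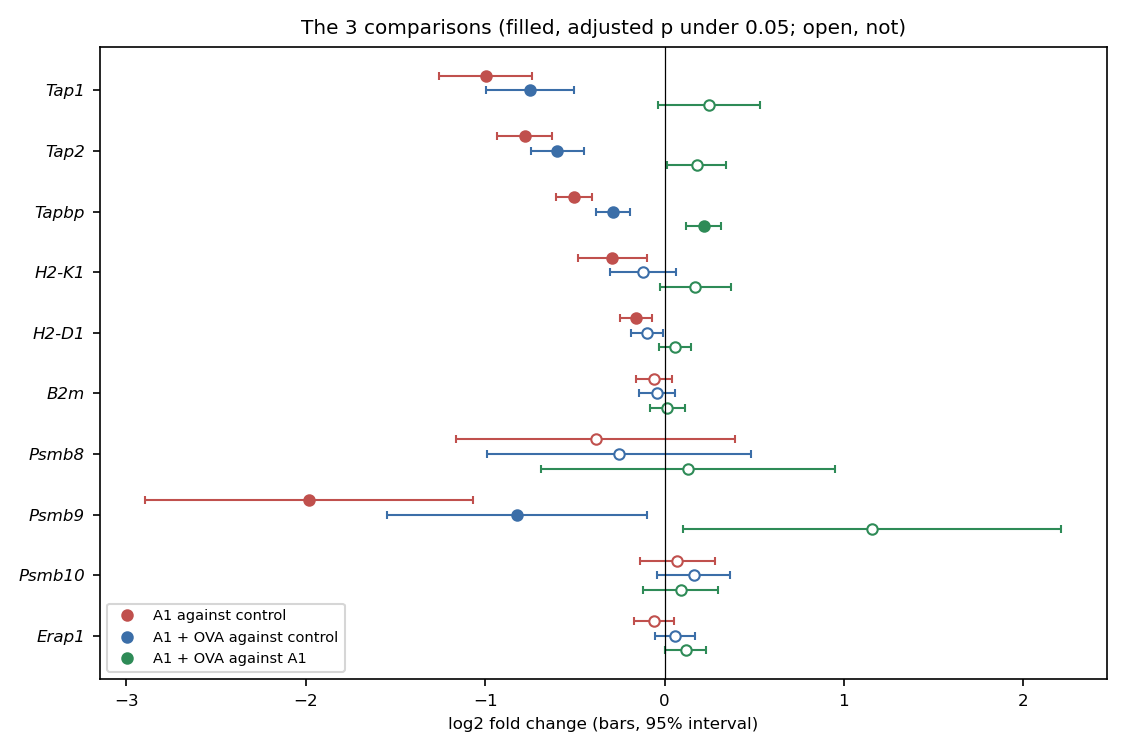
Log2 fold changes (x axis) of the 10 genes (y axis) in the 3 comparisons, with 95% intervals from edgeR. Filled points passed the test at an adjusted p under 0.05; Tap1, Tap2, Tapbp and Psmb9 passed in both comparisons with control and Tapbp alone in the direct one.

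The immunoproteasome subunits were near the lower limit of detection, apart from Psmb10. Psmb9, the inducible counterpart of the constitutive subunit Psmb6, had 18, 13, 14 and 14 counts in control, 5, 2, 5 and 0 counts with A1 and 6, 6, 6 and 13 counts with A1 + OVA. In CPM these are 1.11, 0.77, 0.87 and 0.88 in control, 0.36, 0.15, 0.38 and 0 with A1, and 0.43, 0.38, 0.40 and 0.80 with A1 + OVA. All A1 samples were below all control samples, and 1 A1 + OVA sample overlapped the control range. The 0 counts in A1 replicate 4 allow up to 3 counts, or 0.218 CPM, for counting error only. Psmb9 reached the filter level of 0.65 CPM in all 4 control samples, in 0 A1 samples and in 1 A1 + OVA sample, so that it entered the test through the control group. The estimate with A1 was -1.98 on the log2 scale (standard error 0.44, adjusted p = 0.00052), from 59 counts in all control samples and 12 in all A1 samples. The value with A1 + OVA was -0.82 (standard error 0.35, adjusted p = 0.049), a call that was lost with DESeq2 (adjusted p = 0.092) and without any of 8 of the 12 samples. The direct difference of 1.16 (95% interval 0.11 to 2.21) did not pass (adjusted p = 0.139).

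Psmb8, the inducible partner of Psmb5, had 14, 13, 9 and 10 counts in control, 13, 5, 6 and 5 counts with A1 and 3, 8, 11 and 14 counts with A1 + OVA. The groups overlapped throughout. Its log2 fold changes were -0.38 with A1 (95% interval -1.16 to 0.39), -0.26 with A1 + OVA (-0.99 to 0.48) and 0.13 between treatments (-0.69 to 0.95), and a decrease as large as that of Tap2 lies inside both intervals against control, so that it was not detectable at this depth. Psmb10, the inducible partner of Psmb7, was better counted, with 7.92, 6.74, 9.16 and 7.27 CPM in control, 8.46, 7.71, 8.55 and 7.92 CPM with A1 and 8.12, 8.48, 9.31 and 8.81 CPM with A1 + OVA. All 3 groups of Psmb10 overlapped, and the log2 fold changes were 0.07 (95% interval -0.14 to 0.28), 0.16 (-0.04 to 0.37) and 0.09 (-0.12 to 0.30).

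Within each sample, the inducible subunits were a small share of their constitutive partners. Psmb8 had 2.19% to 3.25% of the counts of Psmb5 in control, 1.46% to 3.02% with A1 and 0.80% to 2.77% with A1 + OVA. Psmb9 had 1.10% to 1.30% of the counts of Psmb6 in control, 0.04% to 0.49% with A1 and 0.51% to 1.04% with A1 + OVA, where a count of 0.5 was added to every count. These 3 ranges did not overlap, each pair with an exact two-sided permutation p of 0.0286, the smallest possible with 4 against 4, and an adjusted p of 0.0857. The differences of the log2 ratio were -2.48, -0.90 and 1.57, and they depend on the sample with 0 counts and on the added count: without A1 replicate 4 the first and last were -1.70 and 0.80, and with 5 added to each count all were -1.22, -0.61 and 0.61. For Psmb10 against Psmb7 the shares were 4.64% to 6.05%, 4.70% to 5.09% and 5.36% to 5.93%, and A1 and A1 + OVA did not overlap (difference of log2 ratios 0.19, exact p = 0.0286, adjusted p = 0.0857). With 15 comparisons, none of the ratios reached an adjusted p under 0.05. A ratio at the smallest p of 0.0286 could not have passed alone after this adjustment, so the lack of a call does not show unchanged ratios.

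**Figure D3:**
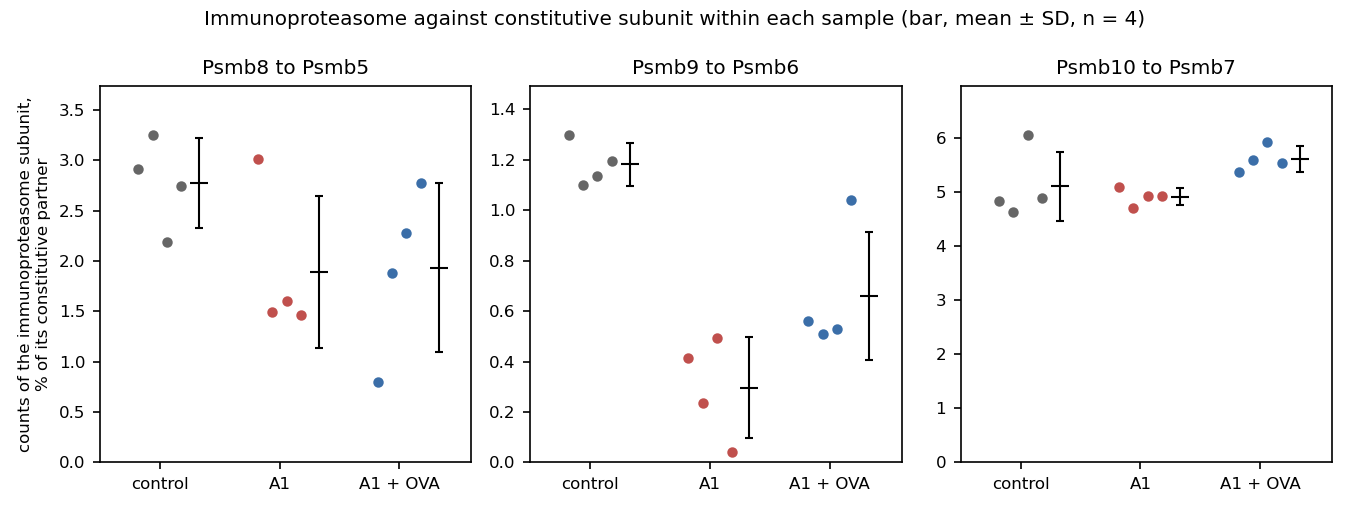
Counts of each inducible proteasome subunit as a percentage of its constitutive partner (y axis, from 0) in each sample, with the mean ± SD of 4 samples per group. Psmb9 against Psmb6 separated the 3 groups, at 1.10% to 1.30% in control and at most 0.49% with A1, and Psmb8 against Psmb5 did not.

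Erap1, the aminopeptidase that trims peptides in the endoplasmic reticulum, did not pass any test. It had 54.3, 67.6, 64.7 and 60.9 CPM in control, 60.6, 60.1, 59.4 and 57.8 CPM with A1 and 64.7, 66.0, 62.4 and 65.0 CPM with A1 + OVA. The treated groups did not overlap each other, and both lay within the control range. The direct difference of 0.12 had a 95% interval of 0.00 to 0.23 and an adjusted p of 0.166.

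The genes whose profile over the 12 samples was nearest to that of a called gene with a change of at least 0.5 were found by the root mean square difference of log2 CPM, centred on each gene's mean. Nearest to Tap2 were Rfx5 (0.09), Galm (0.09) and Ech1 (0.09), and nearest to Tapbp were Rcbtb2 (0.05), Ak3 (0.05) and Sspn (0.06). Those nearest to Tap1 were Ces1d (0.13), Haghl (0.13) and Gamt (0.14). For Psmb9 the nearest, G430095P16Rik, Lipe and Kifc2, were 0.42 to 0.45 away, at 0 to 18 counts of Psmb9 per sample.

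The class I machinery outside the 10 genes moved in part. Of 19 other class I-like heavy chain genes, 9 had at most 3 counts in every sample and 8 were tested. With A1, 5 of these fell and 0 rose, against 31.1% and 31.7% of all tested genes. With A1 + OVA also 5 fell and 0 rose, against 27.9% and 29.7%. The medians of the 8 were -0.40 and -0.27, and the counts of 0 were 0 at an unadjusted p and with DESeq2 as well. They include Mr1, which presents vitamin B metabolites, at 30.6 ± 3.42 CPM in control and 17.95 ± 0.84 CPM with A1 (SD, n = 4), Cd1d1, which presents lipids, at 3.93 ± 0.25 and 2.21 ± 0.39 CPM, and the antibody receptor Fcgrt at 53.2 ± 5.39 and 33.5 ± 1.20 CPM. Their log2 fold changes with A1 were -0.77, -0.83 and -0.67. H2-T22 fell by 0.38 with A1 and by 0.20 with A1 + OVA. H2-T23, which encodes the ligand of NKG2A, had -0.26 with A1 and 0.06 with A1 + OVA and passed neither test. In the direct comparison 0 of the 8 passed in either direction, against 6.05% of all tested genes higher and 6.81% lower. At an unadjusted p under 0.05, 2 were higher and 0 lower, and DESeq2 called 0.

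Of 5 other peptide loading genes, 2 rose and 1 fell with A1, and 3 rose and 1 fell with A1 + OVA, against 31.7% higher and 31.1% lower of all tested genes with A1 and 29.7% and 27.9% with A1 + OVA. DESeq2 called 2 higher with A1 + OVA. There the calls of Calr and Pdia3 were lost with upper-quartile normalization (adjusted p = 0.085 and 0.066) and some left-out samples. The chaperone calreticulin (Calr) rose by 0.11 and its partner Pdia3, the ERp57 oxidoreductase of the loading complex, by 0.20 with A1, from 1741 ± 35.2 to 1885 ± 49.9 CPM and from 1679 ± 79.3 to 1934 ± 63.9 CPM (SD, n = 4). Tapbpl, the tapasin-related peptide editor, went the other way, from 12.7 ± 1.59 to 8.75 ± 0.67 CPM, with a log2 fold change of -0.54 (adjusted p = 4.8e-05). In the direct comparison 0 of the 5 passed, against 6.05% of all tested genes higher and 6.81% lower, also 0 at an unadjusted p and with DESeq2.

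The constitutive catalytic subunits and the assembly and regulator genes of the proteasome numbered 7, all tested. With A1, 4 rose and 1 fell, against 31.7% and 31.1% of all tested genes, and with A1 + OVA 3 rose and 0 fell, against 29.7% and 27.9%, also 0 at an unadjusted p and with DESeq2. In the direct comparison 1 rose, against 6.05% of all tested genes. Psmb6 (0.14) and Psmb7 (0.13), the beta1 and beta2 subunits, and the assembly factor Pomp (0.22) were called higher with A1. The samples of Psmb6 and Psmb7 overlapped control, and their calls were lost with upper-quartile normalization (adjusted p = 0.086 and 0.051), that of Psmb6 also without control replicates 2, 3 or 4 or A1 replicates 1 or 4, and that of Psmb7 without A1 replicate 3. Psmb5, the beta5 subunit, had 0.16 with A1 (adjusted p = 0.076, and 0.031 with the replicate number as a block) and rose by 0.24 with A1 + OVA. Psme3, the nuclear proteasome activator, rose from 150 ± 3.55 to 197 ± 2.07 CPM with A1, a log2 fold change of 0.40. Its interferon-inducible relatives form the PA28 activator. Of these, Psme1 had 54.0 ± 1.47 CPM in control, 47.0 ± 1.01 with A1 and 54.2 ± 2.62 CPM with A1 + OVA, so that it fell by 0.20 with A1 (adjusted p = 0.00079) and was 0.21 higher with A1 + OVA than with A1 (adjusted p = 0.0059). Psme2 passed no test, with -0.12, -0.01 and 0.11.

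Of 7 other peptidases of the cytosol and endosomes, 3 rose and 2 fell with A1, and 3 rose and 3 fell with A1 + OVA. Over all tested genes these shares were 31.7% and 31.1%, and 29.7% and 27.9%. Of the 7, 0 passed in the direct comparison, against 6.05% of all tested genes higher and 6.81% lower. There 1 was higher and 1 lower at an unadjusted p under 0.05, and 0 were called with DESeq2. The endosomal aminopeptidase Lnpep (IRAP), known from cross-presentation, fell by 0.41 with A1, from 236 ± 20.6 to 178 ± 6.24 CPM, and by 0.26 with A1 + OVA. Its direct difference of 0.15 was next to the threshold (adjusted p = 0.051) and passed with the replicate number as a block (0.040) and under 4 of the other 6 settings, but not with DESeq2 (0.059) or with all genes (0.072). Thop1, which destroys cytosolic peptides, rose by 0.34 and 0.38.

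The list of class I transcription and interferon signalling held 17 genes, of which 15 were tested. With A1, 12 fell and 1 rose, at a median of -0.43, and with A1 + OVA 8 fell and 1 rose, at a median of -0.27. Of all tested genes, 31.1% and 27.9% were called lower and 31.7% and 29.7% higher, and their medians were -0.0017 and 0.0036. Nlrc5, the transactivator of class I genes, went from 10.1 ± 0.63 CPM in control to 5.17 ± 0.75 with A1 and 6.16 ± 1.17 with A1 + OVA (SD, n = 4), with log2 fold changes of -0.97 and -0.71. Rfx5, a subunit of the factor that binds class I and class II promoters, fell by 0.67 and 0.62 in the same comparisons, and the transcription factor Irf1 by 0.43 and 0.32. The receptor chain Ifngr1 fell by 0.74 and 0.66 and the kinase Jak1 by 0.78 and 0.77, while Ifngr2, the other chain of the interferon-gamma receptor, rose by 0.60 and 0.58. In the direct comparison 1 of the 15 rose and 0 fell, against 6.05% and 6.81% of all tested genes, also 0 lower at an unadjusted p and with DESeq2. It was Stat2, a transcription factor of type I interferon signalling, at 33.1 ± 3.20 CPM in control, 19.2 ± 2.80 with A1 and 25.1 ± 3.52 with A1 + OVA, with a direct difference of 0.39 (adjusted p = 0.015). The A1 and A1 + OVA samples of Stat2 overlapped in CPM, and its call was lost with some single samples left out. Ifng had no count in any sample and Ifnb1 at most 1.

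**Figure D4:**
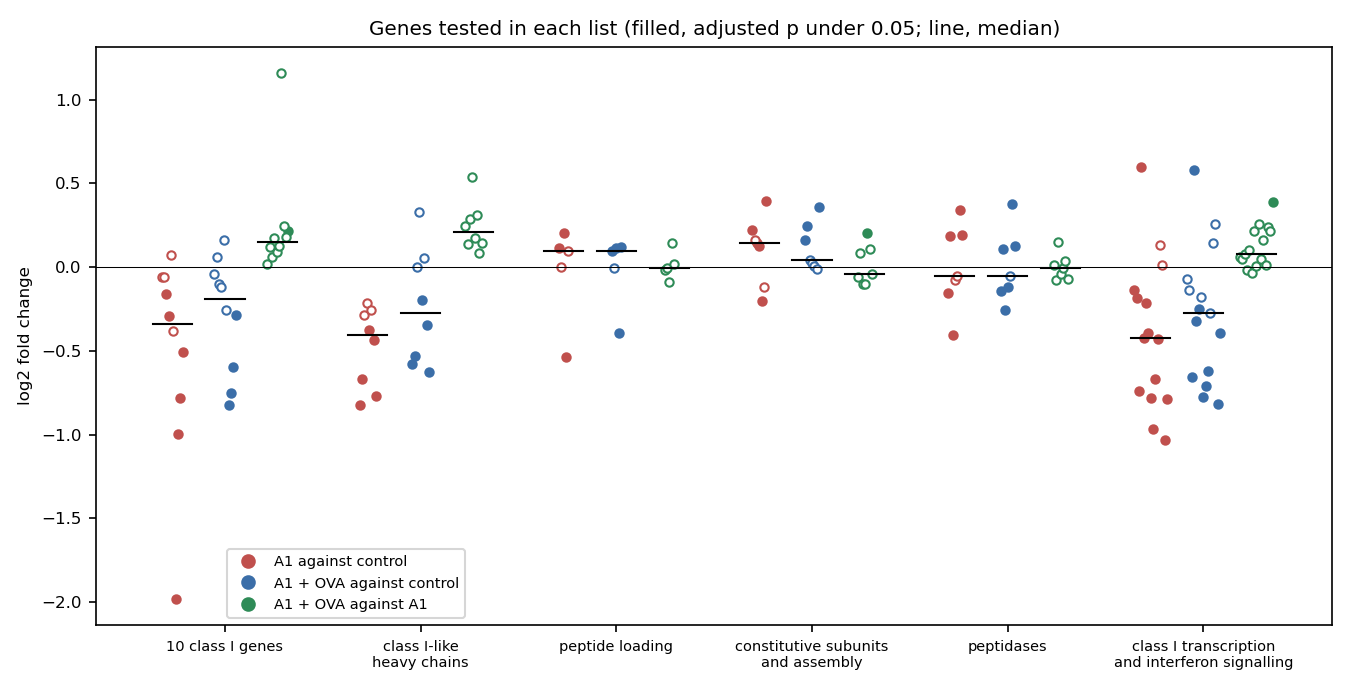
Log2 fold changes (y axis) of the tested genes of each list (x axis) in the 3 comparisons, 1 point per gene, with the median as a line. The class I transcription and interferon signalling genes had medians of -0.43 and -0.27 against control, and filled points passed the test at an adjusted p under 0.05.

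Part of the class II presentation genes stayed at the edge of detection. Of 8 genes, H2-Aa, H2-Ab1, H2-Eb1 and the protease Ctss had at most 3 counts in every sample, and 3 were tested. Of these, 1 fell with A1, against 31.1% of all tested genes, and its samples overlapped control. In the other comparisons 0 were called, also 0 at an unadjusted p and with DESeq2. Of all tested genes, 29.7% were called higher and 27.9% lower with A1 + OVA, and 6.05% and 6.81% between treatments. Of 7 costimulatory and checkpoint ligands, Cd86, Cd40, Pdcd1lg2, Icosl and Cd83 had at most 3 counts in every sample. The 1 that was tested, Cd80, a ligand of CD28 and CTLA-4, rose from 14.2 ± 0.76 CPM in control to 18.2 ± 1.495 with A1 and 18.9 ± 0.93 CPM with A1 + OVA (SD, n = 4), with log2 fold changes of 0.35 and 0.41. Of all tested genes, 31.7% and 29.7% were called higher in the same comparisons.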

How the data were processed

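RNA of 12 samples was sequenced in 3 groups of 4, with groups and columns matched through the sample titles. The authors made strand-specific poly(A) libraries, demultiplexed them with bcl2fastq 2.20, used STAR 2.7 for alignment to GRCm38 and featureCounts 2.0 for counting, and deposited the resulting raw counts, not normalized, so that reads matching several class I genes may be lost or shared. Symbols, biotypes and exon lengths came from GENCODE M21, which held 99.53% of the 55487 identifiers.

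Protein-coding genes that passed filterByExpr (11314 of 21974) were normalized by TMM and tested with the quasi-likelihood test of edgeR 4.0.16 under R 4.3.3, with all samples fitted together, group as the only term and Benjamini-Hochberg adjustment over all tested genes. A gene was called at an adjusted p under 0.05, and a second rule added a log2 fold change of at least 0.5. Ratios of counts within samples, with 0.5 added to each count, were compared by two-sided exact permutation tests (scipy 1.17.1). DESeq2 1.42.0, upper-quartile normalization, other filters, all genes, the compared groups alone, the replicate number as a block, and each sample left out in turn were alternatives. The tests were checked on simulated counts. Intervals of log2 fold changes came from the same edgeR fit and, like its p-values, reflect the spread between these samples, which may be technical. Limits on a count of 0 cover counting error only.

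The genes and lists were chosen with earlier results of these data known. The text names all 10 genes, genes of the lists that passed the test or lay near 0, the constitutive partners of the members and the 3 nearest profiles of each called gene with a change of at least 0.5. H2-T23, Psme2, Cxcl12, Cd44, Itgb1 and Col1a1 were added after their values were seen, and some genes of the lists are not reported here. No measurement of protein, cell surface level or antigen presentation was used here.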

Additional observations from a re-analysis of the deposited data

Results flagged for a closer look

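Of 123 groups of 4 samples looked at, 10 held a sample apart from the other 3 by Dixon's test, which chance alone gives in about 5% of groups. H2-K1 in A1 replicate 4 was low at 7.41 CPM, against 8.85 to 9.01 in the other A1 samples. Psmb8 in A1 replicate 1 was high at 0.94 CPM, against 0.36 to 0.46, and its log2 ratio to Psmb5 there was -5.05, against -6.10 to -5.97. Psmb9 in A1 + OVA replicate 4 was high at 0.80 CPM, against 0.38 to 0.43, and its log2 ratio to Psmb6 was -6.59, against -7.62 to -7.48. These values of Psmb8 and Psmb9 rest on 13 counts each. Stat2 in A1 replicate 2, 1 of the libraries with transcripts of its own, was high at 23.4 CPM (17.5 to 18.4 in the others), and so was Calr at 1959 CPM (1852 to 1864). Jak1 in control replicate 1 was low at 661 CPM (696 to 703), Pdia3 in A1 replicate 3 high at 2029 CPM (1895 to 1913) and Lnpep in A1 + OVA replicate 1 high at 204 CPM (195 to 196).

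By the direct test of edgeR, 3 of the genes named, MSC markers apart, were higher with A1 + OVA than with A1. They were Tapbp with a log2 difference of 0.22 (adjusted p = 0.0044), Psme1 with 0.21 (adjusted p = 0.0059) and Stat2 with 0.39 (adjusted p = 0.015). Of all tested genes, 6.05% were called higher in this comparison. The Stat2 call was lost with some single samples left out. Without a group given OVA alone, a change in the effect of A1 was not tested, and OVA and insulin cannot be told apart.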

How the results depend on the processing

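The count of the 10 genes called lower with A1 was 6 under the alternatives, except 5 with at least 10 counts in every sample and 4 with a minimum log2 fold change of 0.5, and 6 to 7 with single samples left out; with A1 + OVA it was 3 to 5 in both kinds of alternative. The 1 gene called higher with A1 + OVA than with A1, Tapbp, became 0 with a minimum of 0.5 and stayed 1 with any sample left out. The count called higher with A1 + OVA against control ranged from 0 to 1 over left-out samples, where Psmb10 passed without control replicate 3 (0.25, adjusted p = 0.038). The Psmb9 call with A1 + OVA was lost with DESeq2 (adjusted p = 0.092), without a filter on low counts (0.050), with all genes (0.053), with the replicate block (0.059), and without A1 replicate 2, any control sample or any of A1 + OVA replicates 1 to 3 (adjusted p = 0.051 to 0.124). H2-D1 with A1 + OVA passed with upper-quartile normalization (-0.12, adjusted p = 0.018), with at least 10 counts in every sample (0.041), with all genes (0.030) and without control replicate 4 or A1 replicates 1, 3 or 4 (0.036 to 0.047). Erap1 passed with A1 without control replicate 1 (-0.12, adjusted p = 0.038). With A1 + OVA, the Calr call was lost with upper-quartile normalization, no filter, all genes, only the compared groups, and without control replicate 4, A1 replicate 4 or A1 + OVA replicates 2 or 4 (adjusted p = 0.051 to 0.085). The Pdia3 call was lost with upper-quartile normalization, all genes, only the compared groups, and without control replicates 3 or 4 or A1 + OVA replicates 1 or 2 (0.051 to 0.089). Lnpep passed between treatments under 5 of 7 settings (0.010 to 0.0498) and without control replicates 1, 2 or 4 or A1 replicate 2 (0.021 to 0.049). Psmb5 passed with A1 without control replicate 1 (0.24, adjusted p = 0.0068), and H2-T22 passed between treatments without A1 replicate 4 or A1 + OVA replicate 3 (0.048 to 0.0496). The Stat2 call between treatments was lost without A1 replicates 1, 3 or 4 or A1 + OVA replicates 3 or 4 (adjusted p = 0.050 to 0.063). Requiring at least 10 counts in every sample removed Psmb8 and Psmb9. The causes were not tested.

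Values near 0 changed sign. Psme1 with A1 + OVA against control was -0.0021 with DESeq2, -0.018 with upper-quartile normalization, -0.00097 without a filter, -0.0075 with all genes and -0.0027 with only the compared groups, and -0.026 to 0.031 with samples left out. Over left-out samples, in the same comparison, Psme2 ranged from -0.049 to 0.051 and H2-T23 from -0.028 to 0.178, and in the direct comparison B2m from -0.024 to 0.054, Psmb8 from -0.131 to 0.546, Jak1 from -0.0021 to 0.018, Ifngr2 from -0.040 to 0.0085, Rfx5 from -0.0060 to 0.092 and Calr from -0.032 to 0.00030.

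Deviations from the group mean correlated at 0.021 on average between the 12 pairs of equally numbered samples and at -0.007 between 36 other pairs, so the numbers were not taken as pairs. With the number as a block, Tapbp in the direct comparison was 0.22, and the calls that changed among the genes named were those of Psmb9 with A1 + OVA (lost, 0.059), Psmb5 with A1 (gained, 0.031) and Lnpep between treatments (gained, 0.040).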
